A study of Homo sapiens with 3 samples.

Results

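Chromosome 8 was examined in SC1, a human cell line whose cell type is labelled DLBCL, diffuse large B-cell lymphoma. The chromosome was followed along its length for peaks of CREBBP and for regions marked by acetylation of histone H3 at lysine 27 (H3K27ac). The members were all intervals of both deposited lists on chromosome 8, except those that touched a window of 2 Mb around MYC on the long arm. This left 13557 of 215598 CREBBP peaks, 6.29% of that list, and 639 of 18263 H3K27ac regions, 3.50% of that list. On chromosome 8 the exclusion removed 232 CREBBP peaks and 2 H3K27ac regions. The series held 3 chromatin immunoprecipitation sequencing (ChIP-seq) samples of SC1 cells grown in RPMI1640 with serum: a ChIP for CREBBP, a ChIP for H3K27ac and an input without antibody, which was not analysed here. The labels of these samples name no drug and no CREBBP deficiency, which the series title concerns. Peaks are named with DMSO and rep2 in the files, and no label says what these stand for. With 1 sample per group there was no replicate error, and no difference was tested.

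CREBBP is a lysine acetyltransferase that works as a coactivator: transcription factors recruit it, and it acetylates histones, with H3K27 among its sites. H3K27ac marks active promoters and enhancers, and CREBBP is often mutated in lymphomas of germinal-centre origin. Chromosome 8 has a short arm and a longer arm on either side of its centromere, and the long arm carries MYC, whose translocation or gain is a known event in B-cell lymphoma.

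The chromosome was divided at 60 Mb and at the window left out. The first stretch ran from 0 to 60 Mb and held the short arm, the centromere and the start of the long arm. The middle stretch ran from 60 Mb over 67.75 Mb up to the window left out. The last ran from the far side of that window to the last position in either list, at 146.29 Mb. The bounds were chosen by the number of CREBBP peaks per Mb in these same data, so the densities below describe the stretches and support nothing further. All positions are on hg19. Fold enrichment is the authors' own value for each peak, its ChIP signal over the background expected there. No annotation of that build was at hand, so peaks were not assigned to genes and B-cell marker genes were not examined.

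CREBBP peaks were densest in the middle stretch. It held 7942 peaks in 67.75 Mb, or 117 per Mb (95% Poisson interval 115 to 120). The first stretch held 4516 peaks, 75.3 per Mb (73.1 to 77.5), and the last held 1099 peaks in 16.54 Mb, 66.4 per Mb (62.6 to 70.5). The middle stretch was therefore 1.56-fold denser than the first (1.501 to 1.62), and the last had 0.567 times the density of the middle (0.532 to 0.604). The length of the first stretch includes the centromere gap, 3.0 Mb without a CREBBP peak, which lowers its density. With its 2 empty windows left out, which hold most of that gap, the middle-to-first ratio was 1.51 (1.45 to 1.56). Peaks covered 5.09% of the middle stretch, 3.13% of the first and 2.71% of the last. The median distance between neighbouring summits was 5.58 kb in the middle stretch (interquartile range 2.57 to 11.4 kb), 7.87 kb in the first (3.34 to 16.5 kb) and 9.54 kb in the last (3.75 to 20.2 kb). Widths differed less, with medians of 371, 360 and 355 bp in the middle, first and last stretch.

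**Figure D1:**
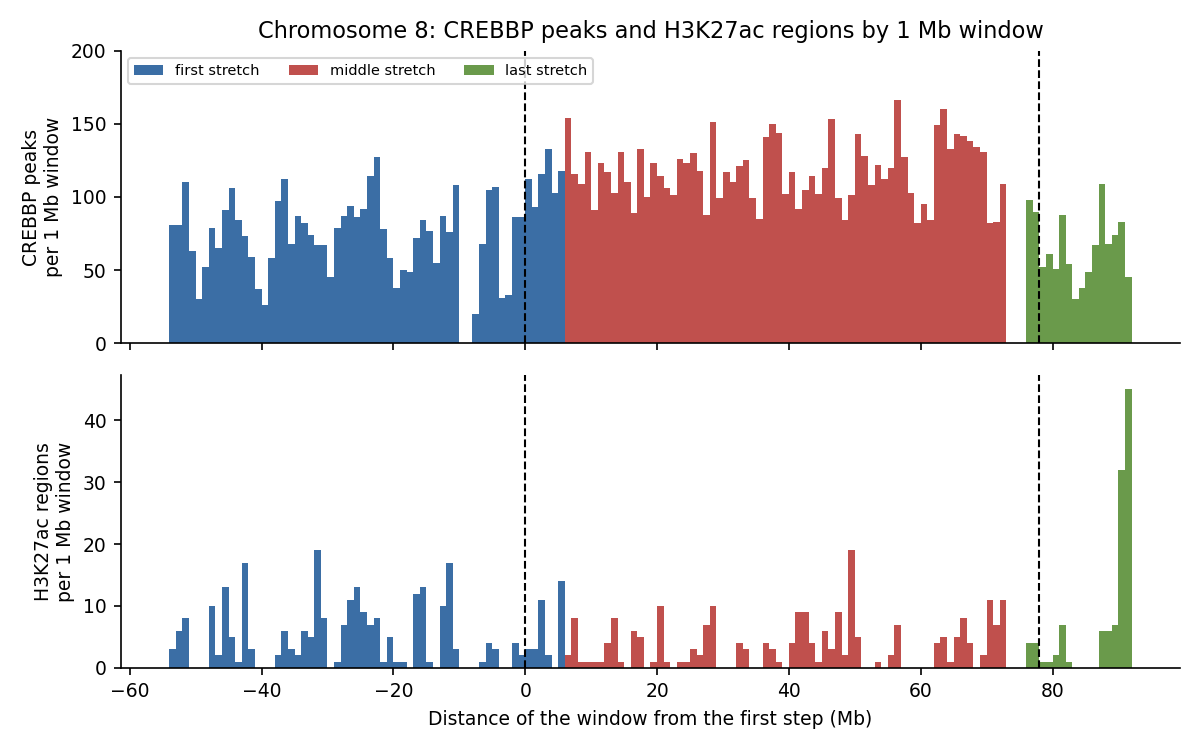
Bars give the number of CREBBP peaks (upper axes) and H3K27ac regions (lower axes) in each full 1 Mb window of chromosome 8, against the distance of the window in Mb from the first step in CREBBP density, with colours for the 3 stretches and dashed lines at both steps. CREBBP counts lie at 82 or more in every window of the middle stretch, the blanks are the centromere (before the first step) and the window left out (before the second), and the tallest H3K27ac bar, 45 regions, stands at the far end.

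Single windows of 1 Mb showed the same order. The lowest, median and highest counts were 82, 117 and 166 peaks over the 67 full windows of the middle stretch. They were 0, 79 and 133 over the 60 windows of the first stretch, and 30, 64 and 109 over the 16 full windows of the last. Across all chromosomes, 599 of 2862 windows with a peak held at least 100 CREBBP peaks, 20.9%. In the middle stretch 53 of 67 windows did, in the first 13 and in the last 1. The counts of neighbouring stretches overlapped: 51 of the 67 middle windows lay under the highest window of the first stretch. No middle window lay at or under 80 peaks, the median of the 58 windows of the first stretch that held a peak, and 3 of those 58 reached the middle median. The variance of the window counts was 3.80 times their mean in the middle stretch, 9.15 times in the first and 7.76 times in the last, leaving out windows with no peak. Counting error alone gives a value near 1, so the Poisson intervals are narrower than the real spread along the chromosome.

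The densest middle window, from 110 to 111 Mb, held 166 CREBBP peaks and 7 H3K27ac regions. Its sparsest windows, from 113 to 114 Mb and from 124 to 125 Mb, held 82 peaks each, the first of them with no H3K27ac region and the second with 11. In the first stretch the highest count, 133, was at 57 to 58 Mb, past the point where the density rose. The windows from 44 to 45 and from 45 to 46 Mb were empty, and the next, from 46 to 47 Mb, held 20. They belong to the widest part of the chromosome without a CREBBP peak, 3.0 Mb from 43837656 to 46839014, where the centromere lies. In the last stretch the highest count was 109 at 141 to 142 Mb, and the lowest was 30 at 137 to 138 Mb.

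**Figure D2:**
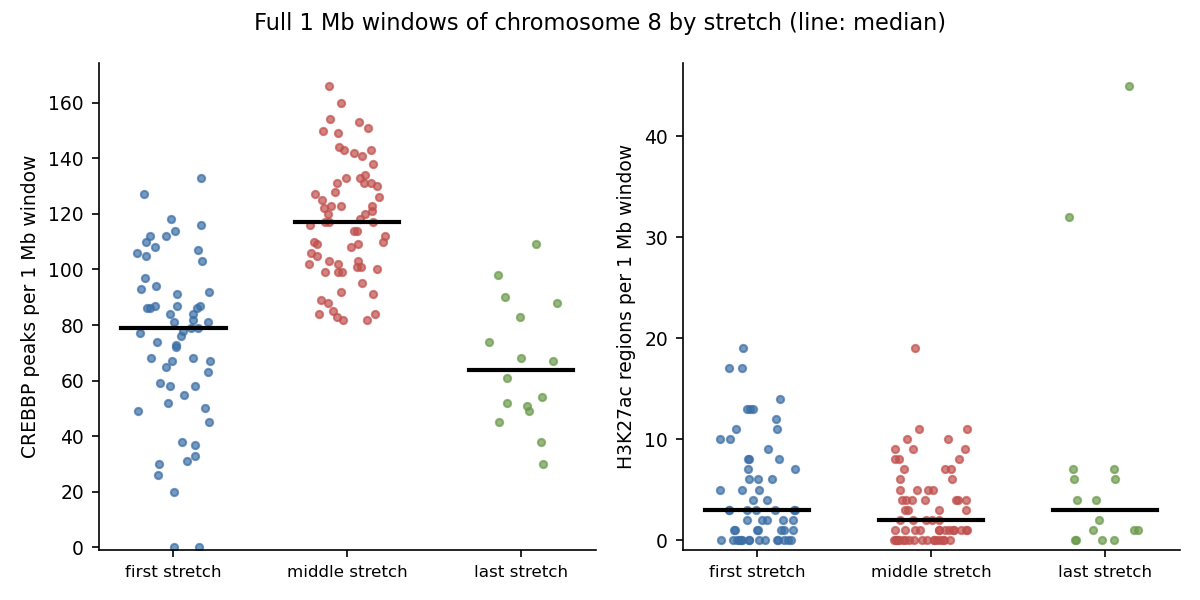
Each point is a full 1 Mb window of chromosome 8, placed by stretch, with the number of CREBBP peaks on the left axis and of H3K27ac regions on the right axis, and lines at the medians. The middle stretch is highest for CREBBP (median 117 against 79 and 64) and lowest for H3K27ac (median 2 against 3 and 3).

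The density changed before 60 Mb and after the window left out. To place the change, the 142 windows with at least 1 peak, the shorter last window included, were split where 2 constant densities matched the counts best, as judged by Poisson deviance, a measure of misfit. The best single split was at 54 Mb, with 73.9 peaks per Mb before and 108 per Mb after, a ratio of 1.46 (1.40 to 1.51). It removed 25.3% of the deviance. This call rests on the peaks used: with peaks at the commonest background alone the best single split was a fall, at 124 Mb with a ratio of 0.623, and with peaks of q no higher than 0.05 it was a rise at 37 Mb. The best further split was at 132 Mb and removed another 23.4%, while later splits, at 33 and 16 Mb, removed 0.907% and 1.97%. Fitting both steps at once gave the same pair, which together removed 48.7%. Between the steps there were 8829 peaks in 76 Mb, 116 per Mb (114 to 119). The 3841 peaks before the first step gave 71.1 per Mb (68.9 to 73.4), with the centromere gap counted in the length. The 887 after the second gave 62.1 per Mb (58.1 to 66.3).

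With all peaks, the rise lay in the long arm, past the centromere. The 43 Mb from the tip of the short arm had 74.3 peaks per Mb (71.8 to 77.0), and the first part of the long arm, from 47 to 54 Mb, had 73.7 (67.5 to 80.4), so the centromere itself did not part dense from sparse. The 6 Mb from 54 to 60 Mb, which the bounds place in the first stretch, had 112.5 per Mb (104 to 121). Window by window, counts were 105 and 107 from 48 to 50 Mb, 31 and 33 from 50 to 52 Mb, 86 and 86 from 52 to 54 Mb, and 112, 93 and 116 from 54 to 57 Mb. The first step was thus not sharp at this scale. In windows of 0.25 Mb the count went from 16 between 52.5 and 52.75 Mb to 38 in the next, and this size put the step at 52.75 Mb. With windows shifted by 0.5 Mb it fell at 52.5 Mb. The 60 Mb bound lay within the dense part, with 118 peaks in the window before it and 154 in the window after.

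With all peaks and 1 Mb windows, the fall lay beyond the window left out. The last 0.75 Mb before it held 81 peaks and the first 0.25 Mb after it held 24. The windows from 130 to 132 Mb held 98 and 90 peaks, and those from 132 to 135 Mb held 52, 61 and 51. Windows of 0.25 Mb placed this step at 131.75 Mb, and shifted windows at 131.5 Mb. In 4 other settings it lay before the window left out: at 124 Mb with 2 Mb windows, with peaks over 50 kb from H3K27ac and with peaks at the commonest background, and at 111 Mb with peaks of q no higher than 0.05. From 132 to 141 Mb there were 54.4 peaks per Mb (49.7 to 59.5). The density was 83.7 per Mb (73.6 to 94.7) from 141 to 144 Mb and 63.8 (53.8 to 75) from there to the end, so the sparse tail was not even.

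The median fold enrichment of CREBBP peaks was 2.17 in each stretch, the value it also had on each of the 23 chromosomes, so this median could not tell stretches apart. The interquartile range of fold was 2.11 to 2.60 in the middle, 1.96 to 2.60 in the first and 2.08 to 2.60 in the last. Most peaks share a few fold values and rest on few fragments. Among peaks at or above the median −log10 p of the list, 1.97, the middle-to-first ratio of median fold was 1.05 (1.01 to 1.06). Because of ties at this median, the cut kept 68.2% of peaks. The number of fragments at a summit and the background under it were solved from fold and p, and this matched all 13557 peaks. The median was 5 fragments (interquartile range 4 to 6) over a background of 1.30 in every stretch. This background, the commonest value in the list, stood under 51.6% of the peaks in the middle, 56.2% in the first and 55.5% in the last.

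The mix of fragment numbers differed between the stretches. Peaks of 3 fragments were 1.16-fold denser in the middle than in the first stretch (1.04 to 1.29), at 11.2 against 9.72 per Mb. The length of the first stretch includes the 3.0 Mb centromere gap, which raises all ratios here alike, so the small excess at 3 fragments is not firm. Between the steps over before them, the ratio at 3 fragments was 1.10 (0.985 to 1.23), an interval that includes 1. The ratio was 1.30 (1.22 to 1.39) at 4 fragments, 1.64 (1.52 to 1.77) at 5 and 1.98 (1.80 to 2.18) at 6. At 7 fragments it was 2.10 (1.84 to 2.40), and at 8 it was 2.39 (1.97 to 2.92). The difference between the stretches was thus larger for peaks of 6 to 8 fragments than for those of 3 or 4, with intervals that do not overlap. From 9 to 14 fragments the ratio was 1.83 (1.54 to 2.19). At 15 or more it was 0.872 (0.681 to 1.12), from 132 peaks in the middle and 134 in the first stretch.

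**Figure D3:**
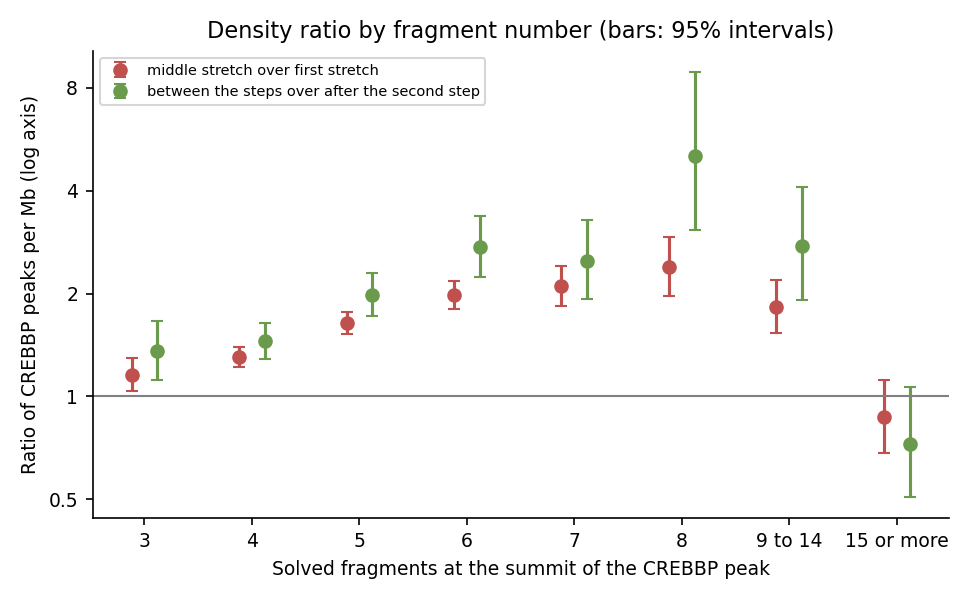
Points give the ratio of CREBBP peaks per Mb, on a log axis, for the middle over the first stretch and for the part between the steps over the part after the second step, by the number of fragments solved at the summit, with 95% Poisson intervals as bars. Both series are under 1.4 at 3 fragments and over 2 at 8, and both lie under 1 at 15 or more, where the bars cross 1.

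The same order was seen at the second step. Between the steps, peaks of 3 fragments were 1.36 times (1.11 to 1.66) as dense as after the second step, those of 5 fragments 1.98 times (1.72 to 2.29) and those of 8 fragments 5.04 times (3.07 to 8.90), the last from 429 and 16 peaks. Peaks that stood on the commonest background were then taken alone. There, 3 fragments gave a middle-to-first ratio of 1.17 (1.05 to 1.31), 5 gave 1.63 (1.47 to 1.80) and 7 gave 2.13 (1.60 to 2.85). These ratios too count the centromere gap in the length of the first stretch, so the excess at 3 fragments is not firm. Of all such peaks in the genome, 13.5% had 6 or more fragments. The share was 17.5% in the middle stretch (716 of 4101, exact binomial interval 16.3 to 18.7%), 13.04% in the first (11.8 to 14.4%) and 11.0% in the last (8.61 to 13.7%). The middle share lay above the genome's, and the other two had intervals that include it. All these values come from the library that defined the stretches.

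Stronger peaks were few. Over all chromosomes 1.81% of CREBBP peaks had a q no higher than 0.05. On chromosome 8 these were 102 peaks of the middle stretch, 1.28% (1.05 to 1.56%), 79 of the first, 1.75% (1.39 to 2.18%), and 13 of the last, 1.18% (0.631 to 2.01%). Per Mb these were 1.51, 1.32 and 0.786 peaks. The middle-to-first ratio was 1.14, with an interval of 0.844 to 1.55 that includes 1. Of the 79 in the first stretch, 15 lay within 100 kb of the edges of the centromere gap. Without the peaks in those 100 kb on each side the ratio was 1.41 (1.02 to 1.96), an interval that includes the 1.56 of all peaks. That for peaks of 15 or more fragments was 0.991 (0.767 to 1.28). Only the peaks were left out: the length still counted the gap and its sides, which raises both ratios. The lower end of 1.02 therefore does not show an excess.

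The peaks at the gap had the most fragments of the chromosome. The highest number, 694 fragments over a background of 469, was in a peak from 46849144 to 46849880 with a fold of 1.48, and the second, 577 over 261, was from 46844116 to 46844451 with a fold of 2.21. Each of the 8 peaks with the most fragments lay within 11.3 kb of the gap, and none was inside an H3K27ac region. In the last 100 kb before the gap, 11 peaks had a median of 137 fragments over a median background of 43.4. Within 100 kb past the gap, 19 peaks had a median of 5. The 8 peaks of q at most 0.05 in the window from 46 to 47 Mb, which held only 20 peaks in all, are of this group.

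By fold, the leading CREBBP peak of the first stretch was also at the gap. It ran from 46868406 to 46868713, with a fold of 7.81 from 17 fragments over the commonest background, 961 kb from the nearest H3K27ac region. The next, from 23100685 to 23101483, reached a fold of 5.29 in a 4246 bp region of H3K27ac with a fold of 4.08. The third, from 38814916 to 38815551, reached 5.26 on 48 fragments in a 6892 bp region. In the middle stretch the peak from 119575964 to 119576647 led with a fold of 5.04 and 18 fragments, inside 2311 bp of H3K27ac with a fold of 10.8. The next peaks, from 73824843 to 73825154 and from 100804184 to 100804473, had folds of 4.78 and 4.77 on 11 and 10 fragments. They were 95.3 and 100.4 kb from H3K27ac. In the last stretch the leading peaks had folds of 4.90, 4.34 and 3.91 and none was inside an H3K27ac region. They lay from 144129597 to 144130213, from 130271381 to 130271714 and from 131223282 to 131224528. The one named last had 8 fragments and a −log10 q of 1.29, just short of the threshold.

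Taken over the 3 stretches, H3K27ac regions, which come from another library, were not densest where CREBBP peaks were. The middle stretch held 228 regions, 3.37 per Mb (2.94 to 3.83), against 286 in the first, 4.77 per Mb (4.23 to 5.35), and 125 in the last, 7.56 per Mb (6.29 to 9.0). The middle-to-first ratio was 0.706 (0.591 to 0.843), below 1, where that of CREBBP peaks was 1.56. Regions covered 0.639% of the middle stretch, 1.04% of the first and 1.21% of the last. Their median fold was 4.83 in the middle (interquartile range 3.37 to 7.13), 4.75 in the first (3.22 to 7.04) and 4.21 in the last (2.98 to 7.09). Their median widths were 1448, 1591 and 1376 bp. Of all H3K27ac regions in the genome 99.3% had a q of at most 0.05, and on chromosome 8 it was 636 of 639. No step was sought in this list. Cut at the CREBBP steps, it had 4.69 regions per Mb before the first, 3.54 between them and 8.19 after the second. Close to the steps the H3K27ac list had 2.0 per Mb from 47 to 54 Mb and 5.5 from 54 to 60 Mb. It had 3.56 from the window left out to 132 Mb and 1.33 from there to 141 Mb. Beside both steps its density thus changed in the same direction as that of CREBBP peaks. The counts were small: 14 and 33 regions at the first step, 8 and 12 at the second. The 43 Mb up to the gap had 5.49 per Mb, near the value from 54 to 60 Mb. The rise at the first step was therefore only against the part from 47 to 54 Mb.

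The high value of the last stretch came from its end. The windows from 144 to 145 and from 145 to 146 Mb held 32 and 45 H3K27ac regions, the most on chromosome 8, with 83 and 45 CREBBP peaks. From 144 Mb to the end there were 86 of the 125 regions of the stretch, 37.6 per Mb, covering 6.34% of the sequence. From 132 to 141 Mb there were 12, or 1.33 per Mb. Over the full windows after the second step the median was 1.5 regions, under the 2 between the steps. The richest windows elsewhere held 19 regions each, at 22 to 23 Mb with 67 CREBBP peaks and at 103 to 104 Mb with 101.

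The share of CREBBP peaks inside H3K27ac regions was lower in the middle stretch than over the genome, where it was 5.06%. It was 1.86% in the middle stretch (148 peaks, 1.58 to 2.19%), 4.69% in the first (212 peaks, 4.10 to 5.35%) and 4.73% in the last (52 peaks, 3.55 to 6.16%). Low shares were not particular to the middle. In the last stretch 30 of the 52 peaks lay from 144 Mb on, where the share was 20.5%. It was 1.89% up to 132 Mb, 1.63% from 132 to 141 Mb and 3.98% from 141 to 144 Mb. In the first stretch it was 5.19% up to 43 Mb, 2.52% from 47 to 54 Mb and 4.59% from 54 to 60 Mb. Seen per length of H3K27ac, however, the middle and first stretches were alike in value: 34.2 and 34.0 peaks per 100 kb of region, and 26.1 in the last. Computed on a grid of 1 kb, the ratio inside regions was 1.00 (0.805 to 1.24), an interval with values on both sides of 1. Outside the regions there were 115 peaks per Mb in the middle and 71.7 in the first. Peaks inside had a median of 20.5 fragments over a background of 10.2 in the middle, 15 over 5.54 in the first and 23 over 9.62 in the last.

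The excess of the middle stretch was larger away from H3K27ac. The centromere gap was left out of the lengths here. Within 10 kb of a region the middle-to-first ratio was 1.21 (1.03 to 1.42), at 79.6 and 65.9 peaks per Mb. From 10 to 50 kb it was 1.36 (1.25 to 1.49), and from 50 to 200 kb it was 1.37 (1.28 to 1.47). Beyond 200 kb it was 1.77 (1.67 to 1.87), at 114 and 64.6 per Mb. That class held 4254 of the 7942 peaks of the middle stretch and 1657 of the 4516 of the first. The last stretch had 58.4 per Mb in it, near the first.

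**Figure D4:**
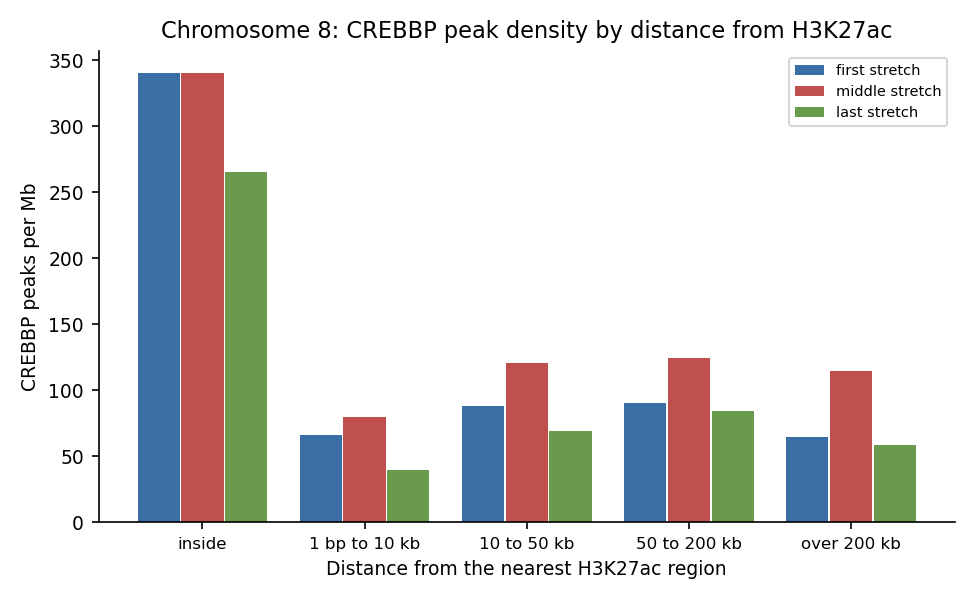
Bars give CREBBP peaks per Mb of sequence (linear axis from 0) inside H3K27ac regions and at 4 distances from the nearest one, for the 3 stretches of chromosome 8. Inside regions the first and middle stretches are level at 340 per Mb, and over 200 kb away the middle stands at 114 against 64.6 and 58.4.

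Window counts gave the same view. In the first stretch, windows with no H3K27ac region but at least 1 CREBBP peak had a median of 45 peaks (13 windows), and those with 5 or more regions had 86.5 (24 windows). In the last stretch these medians were 43.5 (4 windows) and 78.5 (6 windows). In the middle stretch they were 102.5 (18 windows) and 111.5 (20 windows), closer together. Across windows of a stretch, Spearman's rho between CREBBP peaks and H3K27ac regions was 0.54 over 58 windows of the first, 0.15 over 67 of the middle and 0.53 over 16 of the last. These are descriptions across neighbouring windows that share libraries and depth, and base composition was not examined.

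Seen from the mark, 49% of H3K27ac regions in the genome held a CREBBP peak. On chromosome 8 it was 116 of 228 in the middle stretch, 50.9% (44.2 to 57.5%), 162 of 286 in the first, 56.6% (50.7 to 62.5%), and 48 of 125 in the last, 38.4% (29.8 to 47.5%). The first and last had intervals that exclude the genome's share, on opposite sides of it. The low value of the last came from its end, where 28 of 86 regions from 144 Mb on held a peak. In its other parts 4 of 8 did up to 132 Mb, 6 of 12 from 132 to 141 Mb and 10 of 19 from 141 to 144 Mb. Among peaks that passed q 0.05, 56.5% in the genome lay in an H3K27ac region. The share was 33 of 102 in the middle, 32.4% (23.4 to 42.3%), and 35 of 79 in the first, 44.3% (33.1 to 55.9%). It was 8 of 13 in the last, 61.5% (31.6 to 86.1%). Without the 100 kb on each side of the gap the first stretch had 35 of 64, 54.7% (41.7 to 67.2%), a value near the genome's, while the interval of the middle lay under it. The genome's share was taken with no such cut beside centromeres.

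The widest H3K27ac region of the chromosome was in the first stretch, 27.8 kb from 2486020 to 2513802, with a fold of 5.42. It held 6 CREBBP peaks, of which 1 passed q 0.05. The next of that stretch were 10.4 kb from 11308380 to 11318734, with no CREBBP peak, and 10.1 kb from 11271700 to 11281769, with a fold of 10.4 and 1 peak. In the middle stretch the widest was 10.6 kb from 126613452 to 126624071, with a fold of 6.31 and 3 CREBBP peaks, the largest of 49 fragments. It was followed by 9.40 kb from 82015638 to 82025035 with 3 peaks and by 6.78 kb from 86084381 to 86091163 with 1 peak of 57 fragments. The widest of the last stretch were 6.51 kb from 145493265 to 145499769 with 1 peak, 5.90 kb from 145324389 to 145330285 with none and 5.72 kb from 144479341 to 144485062 with 1.

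The same splitting rule was run on the other 22 chromosomes as a comparison, with no test. The best single split removed 25.3% of the deviance on chromosome 8, second to 27.2% on chromosome 13 and ahead of 21.8% on chromosome 10. By the size of its ratio the split of chromosome 8, 1.46, ranked sixth of 23, behind chromosome 13 at 2.32 and chromosome 10 at 2.24. Chromosome 7, the other chromosome with a high window median, 107 peaks, had no such break: its best split removed 4.08%. The 1 Mb windows of the other chromosomes that held a peak had a median of 75 (interquartile range 53 to 94). The first and last stretches of chromosome 8, at 79 and 64, lay within that range and the middle, at 117, above it. On chromosome 7 before its split, at 125 Mb, the window median was 112 and 20.2% of peaks at the commonest background had 6 or more fragments (19.2 to 21.2%), above the 17.5% of the middle stretch. On chromosome 13 past its split, at 94 Mb, these values were 32 peaks and 6.0% (4.06 to 8.51%).

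**Figure D5:**
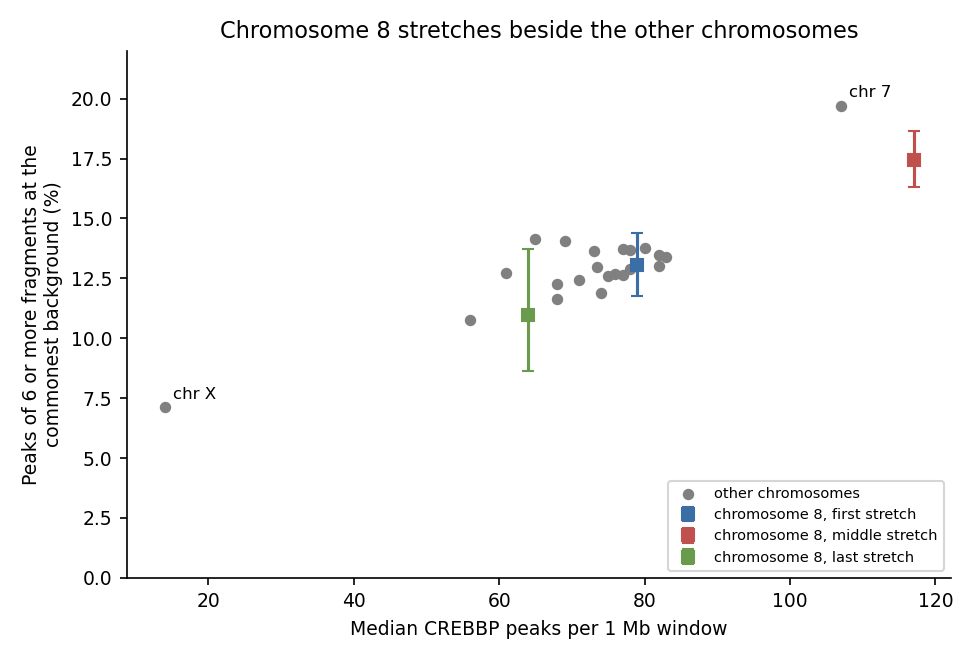
Points give the median number of CREBBP peaks per 1 Mb window against the percent of peaks at the commonest background that had 6 or more fragments, for each other chromosome (grey) and for the 3 stretches of chromosome 8 (squares, bars: 95% exact binomial intervals). The middle stretch, at 117 peaks and 17.5%, stands beside chromosome 7, and the other stretches lie among the remaining chromosomes.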

How the data were processed

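ChIP-seq peak lists of 2 samples of the SC1 cell line, 1 per group, were used. The submitters' processing notes name hg19 and the tools fastp, Bowtie2, STAR and MACS2, and no source used here gives their roles, settings, the control library or any pooling. The authors deposited, per peak or region, a score, which was not used, a fold enrichment (a ratio), and p and q as −log10. The CREBBP list also gives the summit of each peak. The depth of the libraries is unknown, and all intervals are for counting error alone, as if peaks were independent.

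CREBBP peaks were placed by their summit and H3K27ac regions by their middle, on chromosomes 1 to 22 and X. An overlap needed 1 bp. Fragments k and background b were solved from fold = (k + 1)/(b + 1) and p as the upper Poisson tail, within 0.001 of −log10 p. They are inferences from the deposited values. Steps needed 10 windows on each side. The stretches, lists and rules were chosen with earlier results of these data known. In each stretch the text names the 3 CREBBP peaks of largest fold, the 3 widest H3K27ac regions and the windows with the most and fewest peaks. The windows beside the steps, the most H3K27ac-rich windows, the parts of the last stretch and the peaks at the centromere gap were chosen after their values were seen. The step and overlap code was tested on simulated data. Alternatives changed the peaks used, the windows, the criterion and the overlap. Software was Python 3.11.15 with scipy 1.17.1, pandas 2.3.3, numpy 2.4.6 and matplotlib 3.10.9.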

Additional observations from a re-analysis of the deposited data

How the results depend on the processing

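Of 61 alternative values, 36 stayed within 1 Mb (step position) or within the interval of the reported value, 23 moved and 2 changed direction, and for each that did, unless stated, the cause was not tested. The middle-to-first density ratio of 1.56 was 1.14 with CREBBP peaks of q at most 0.05. It was 1.41 with these peaks but without those within 100 kb of the centromere gap, at an unchanged length. It was 1.81 with peaks over 50 kb from H3K27ac, 1.43 with peaks at the commonest background and 1.63 with stretches cut at the steps. Peaks over 50 kb from H3K27ac were divided by whole lengths for this and the later ratios, not by the sequence at that distance. That sequence took more of the middle stretch: 37.2 Mb lay beyond 200 kb, against 25.6 Mb in the first. Per Mb at that distance the ratio was 1.37 from 50 to 200 kb and 1.77 beyond 200 kb. The last-to-middle ratio of 0.567 was 0.522, 0.513 and 0.609 with peaks of q at most 0.05, those over 50 kb from H3K27ac and those at the commonest background. The single step at 54 Mb moved to 52.75 Mb with 0.25 Mb windows, to 52.5 Mb with shifted windows and to 37 Mb with the 194 peaks of q at most 0.05. At the commonest background the best single split was at 124 Mb with a ratio of 0.623, a fall instead of a rise, and the best pair found in turn was 63 and 124 Mb. With 2 Mb windows the second step was also at 124 Mb, where the minimum of 10 windows on each side leaves no later place. With peaks over 50 kb from H3K27ac it was again at 124 Mb, and with peaks of q at most 0.05 at 111 Mb, so the second step is less firmly placed than the values near 132 Mb alone would show. The step ratio of 1.46 was 1.51 with empty windows kept and 1.70 with peaks over 50 kb from H3K27ac. It was 1.53 with peaks at or above the median −log10 p of the list, a cut that kept 68.2% of peaks because of ties. The ratio of median CREBBP fold, 1.00, was 1.10 with peaks of q at most 0.05 (0.978 to 1.28) and 1.05 with the same cut at the median −log10 p. That of median H3K27ac fold, 1.02 (0.881 to 1.23), turned to 0.95 (0.767 to 1.22) with the upper 50% of regions by q. For peaks of q no higher than 0.05 the share inside H3K27ac regions was 44.3% in the first, 32.4% in the middle and 61.5% in the last stretch. The share of regions holding such a peak was 11.9%, 14.5% and 6.40%, lower by construction since fewer peaks were used. No paired analysis was possible because there was 1 sample per group. The depth of the libraries is unknown, and the median CREBBP peak rests on 5 solved fragments.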

Other observations

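Long parts of chromosome 8 without any H3K27ac region still held CREBBP peaks. Those in the middle stretch held more, but the stretches were bounded by CREBBP density in these same data, so this order is no separate result. These parts were chosen after their values were seen. The widest, 5.78 Mb from 110657769 to 116441339 in the middle stretch, held 605 CREBBP peaks. The second, 5.0 Mb from 136470204 to 141467165 in the last stretch, held 261. In the first stretch, 3.70 Mb from 12613924 to 16313058 and 3.67 Mb from 2591656 to 6263130 held 175 and 220. A part of 3.26 Mb in the middle stretch, from 82755152 to 86018938, held 360, and one of 3.23 Mb before the first step, from 49585349 to 52810756, held 162. Another of 3.21 Mb in the middle stretch, from 87527342 to 90741251, held 333. The third widest, 4.59 Mb from 43237010 to 47829588, spans the centromere gap and held 147.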
